A study of Mus musculus with 6 samples.

Results

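Leptin, resistin, adipsin and 5 related transcripts were examined in tick-bitten ear skin of mice with and without adiponectin. The 8 genes were chosen by symbol, as adipokines or their receptors other than adiponectin itself, from the 15667 genes of the expression table (positions are on GRCm38, mm10, as listed there). All 8 were listed, with values of 2.43 to 178 CPM (reads per 1000000 reads of the library), and no library was below 1 CPM for any of them. RNA was sequenced from ear skin of WT (Adipo+/+, n = 3) and KO (Adipo-/-, n = 3) littermates, one mouse per library. All were female mice aged 7 to 8 weeks of the line B6;129-Adipoqtm1Chan/J, in which KO mice carry a germline null allele of adiponectin in every tissue. All 6 mice had carried 10 Ixodes scapularis nymphs for 48 h, and a punch was taken at the bite site. Unbitten skin was not analysed here.

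Adipokines are proteins that fat cells release, although several of them are made by other cells too. Leptin reports fat stores to the brain and acts on immune cells through its receptor, a JAK-STAT coupled cytokine receptor. Resistin is secreted by white fat cells in the mouse, and adipsin (complement factor D) is the serine protease that starts amplification of complement by the alternative pathway. In skin, white fat cells lie beneath the dermis and around hair follicles, so a punch that spans the ear can hold a varying amount of fat.

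The implied depth of the libraries was 3403773 to 6591320 reads, at which 3 reads corresponded to 0.455 to 0.881 CPM. The targeted gene Adipoq was at 30.5, 63.7 and 49.6 CPM in WT replicates 1, 2 and 3 and at 0, 0.56 and 0 CPM in KO replicates 1, 2 and 3, matching the labels. The libraries stood apart in hair follicle keratins and hair proteins, whose 16 markers summed to 8.71 and 10.4 CPM in WT replicates 1 and 2, to 24229 CPM in WT replicate 3 and to 980 to 9620 CPM in the KO libraries. The 11 neutrophil markers in the table summed to 703 CPM in WT replicate 1 and to 74.4 to 259 CPM in the other libraries. No batch or date is given in the labels.

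Levels of the 8 genes in WT were first compared per length, as CPM per kilobase of the longest GENCODE M21 transcript. Cfd (adipsin) was the most abundant, at 156 ± 52.5 CPM per kilobase in WT (SD, n = 3), and its lowest WT library (95.6) lay above every WT library of the other 7 genes. It also exceeded Adipoq, which was at 37.1 ± 12.9 CPM per kilobase in WT. Behind it came Retn (12.5 ± 4.27), Nampt (11.3 ± 1.10), Cmklr1 (11.0 ± 2.16) and Rarres2 (9.37 ± 3.13), whose WT ranges overlapped. Lepr (6.40 ± 2.22) and Lep (6.13 ± 2.03) did not differ beyond their spread. The range of Lepr also reached those of Rarres2 and Retn, and the range of Lep reached that of Rarres2. Rbp4 was lowest, at 3.71 ± 0.50 CPM per kilobase, and its range overlapped those of Lepr and Lep. With merged exons as the length, Retn moved from the 2nd to the 4th place and Lepr and Lep changed places. Rarres2 has 5 annotated transcripts, the longest of 2513 bases in 3 exons, and its merged exons span 2656 bases. A shorter transcript as the length would give it a higher value, so its place depends on the transcript used.

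Promoter sequences are shown for the 3 secreted factors that varied together between libraries (Lep, Retn and Cfd) and for Nampt, which hardly varied. Each is the 250 bases before the gene's start, from RefSeq (GRCm38.p6), 5′ to 3′ on the gene's strand, for the intervals chr6:29059971-29060220, chr8:3655520-3655769, chr10:79890603-79890852 and chr12:32820085-32820334, all on the plus strand. Capitals mark the letters TTNNGCAA, the core of a C/EBP site (C/EBP factors act in fat cell differentiation), and the GC box GGGCGG, both searched on both strands.
Lep: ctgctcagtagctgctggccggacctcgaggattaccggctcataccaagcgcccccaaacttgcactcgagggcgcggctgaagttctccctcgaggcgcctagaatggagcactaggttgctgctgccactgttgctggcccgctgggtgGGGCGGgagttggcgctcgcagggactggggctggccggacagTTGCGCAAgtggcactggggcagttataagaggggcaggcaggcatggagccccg
Retn: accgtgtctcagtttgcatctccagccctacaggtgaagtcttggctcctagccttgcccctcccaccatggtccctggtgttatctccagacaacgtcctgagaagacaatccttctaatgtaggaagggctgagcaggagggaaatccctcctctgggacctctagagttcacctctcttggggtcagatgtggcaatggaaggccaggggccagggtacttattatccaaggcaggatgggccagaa
Cfd: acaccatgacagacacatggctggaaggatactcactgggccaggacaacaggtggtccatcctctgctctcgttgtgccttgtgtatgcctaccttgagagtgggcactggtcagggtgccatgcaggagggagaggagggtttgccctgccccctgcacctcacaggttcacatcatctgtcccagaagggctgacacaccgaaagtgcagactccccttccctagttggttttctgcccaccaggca
Nampt: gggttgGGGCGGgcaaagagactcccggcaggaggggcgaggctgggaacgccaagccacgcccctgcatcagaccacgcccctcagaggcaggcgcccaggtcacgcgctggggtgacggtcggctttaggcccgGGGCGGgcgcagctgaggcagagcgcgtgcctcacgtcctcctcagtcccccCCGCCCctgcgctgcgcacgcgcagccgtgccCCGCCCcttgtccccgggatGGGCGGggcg

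The Lep window held 1 C/EBP match, TTGCGCAA, 55 to 48 bases before the start. These letters are their own reverse complement. A window of Rbp4, not shown, also held a C/EBP match, TTATGCAA, 128 to 121 bases before the start. Of all 32536 RefSeq windows of this length, 9.57% held the C/EBP letters. The Nampt window held 5 GC boxes and the Lep window held 1, whereas 33% of all windows held at least 1. Windows of Lepr and Rbp4 held GC boxes too. Bases G and C made up 75.6% of the Nampt window, 65.6% of the Lep window, 57.6% of the Cfd window and 54.8% of the Retn window, against a median of 52.4% over all windows. A DR1 element (copies of AGGNCA with 1 base between them), which PPARG dimers bind, was in 0.341% of all windows and in none of those of the members. TATAAA was in 12.3% of all windows and, among the members, in a window of Rbp4. A match is a description of letters, not a binding site. A window was found for 7 of the 8 genes (not Rarres2).

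The comparison of KO with WT asked whether these transcripts differed at the bite site of mice that lack adiponectin. No member passed the adjusted threshold (limma with the Benjamini-Hochberg adjustment over the 14306 genes tested, adjusted p = 0.998 for each of the 8), where 0.014% of all tested genes did. Limma voom on recovered reads gave 0 members as well, with Retn at -1.42 (unadjusted p = 0.0102, adjusted p = 0.997). At an unadjusted p below 0.05, 1 of the 8 members was lower in KO (Retn) and 0 were higher, against 1.82% and 1.06% of all tested genes. The KO values lay wholly below the WT values for 0 of the 8 members and for 4.89% of all tested genes. The fold changes of the 8 members were all negative with a median of -0.53 on the log2 scale, next to -0.03 for all tested genes, of which 8106 were negative. With quantile normalization Nampt was at 0.00 and no longer negative, while the other 7 kept their sign. Over all genes, 63.1% of the unadjusted calls were lower in KO, and this share was 50.6% after rescaling by the median of ratios and 45.4% after quantile normalization. In bulk skin, fewer cells of a type and less RNA per cell cannot be told apart.

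**Figure D1:**
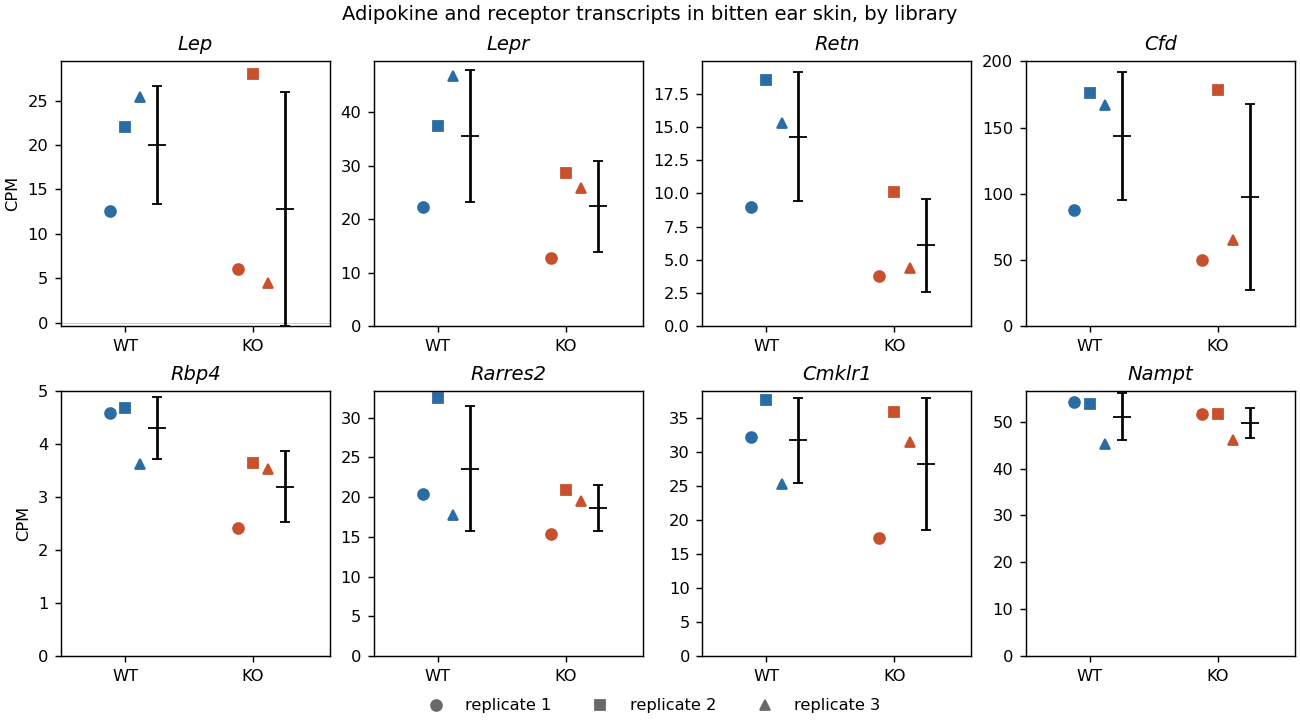
CPM of the 8 transcripts in each library (blue, WT; red, KO; marker shape, replicate), with the mean and SD (n = 3) as a black bar beside each group. For Lep and Cfd KO replicate 2 was the highest of all libraries (28.0 and 178 CPM), whereas KO replicates 1 and 3 lay below every WT library.

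Resistin differed most. Retn (chr8:3655770-3659818) was at 8.96, 18.5 and 15.3 CPM in WT replicates 1, 2 and 3 and at 3.79, 10.1 and 4.41 CPM in KO replicates 1, 2 and 3. KO replicates 1 and 3 were below every WT library, and KO replicate 2 lay just above WT replicate 1, so the groups overlapped. Means were 14.3 ± 4.87 (WT) and 6.10 ± 3.47 CPM (KO; SD over 3 libraries). The log2 fold change was -1.22 (SE 0.41, 95% interval -2.16 to -0.28, limma unadjusted p = 0.0171), or 2.34-fold lower, and Retn ranked 121st of the tested genes by p. These levels rest on 221 recovered reads in WT and 76 in KO, with 15 reads in KO replicate 3. The fold change of Retn was negative under 19 of 19 alternative settings and at an unadjusted p below 0.05 under 15 of them. The call was lost without WT replicate 2 (-1.01, limma unadjusted p = 0.0687), without KO replicate 1 (-0.98, unadjusted p = 0.0601), without KO replicate 3 (-1.07, unadjusted p = 0.0605) and with a score of adipocyte markers as a covariate.

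Leptin varied more within KO than between the groups. Lep (chr6:29060221-29073876) was at 12.6, 22.0 and 25.4 CPM in the 3 WT libraries and at 6.07, 28.0 and 4.41 CPM in the 3 KO libraries. KO replicate 2 held the highest value of all 6 libraries and KO replicate 3 the lowest, a 6.36-fold span inside 1 genotype. On the log2 scale the SD was 0.52 in WT and 1.36 in KO. The log2 fold change of -1.02 (SE 0.62, 95% interval -2.45 to 0.42, limma unadjusted p = 0.141) did not exceed this spread. Without KO replicate 2 it was -1.79 (limma unadjusted p = 0.00131, adjusted p = 0.780), whereas without KO replicate 3 it was -0.52 (unadjusted p = 0.432) and without KO replicate 1 it was -0.73.

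The leptin receptor, Lepr (chr4:101717407-101815352), was at 22.3, 37.4 and 46.7 CPM in WT and at 12.7, 28.6 and 25.9 CPM in KO. Only KO replicate 1 lay below all WT libraries, and the other 2 KO libraries fell between WT replicates 1 and 2. Lepr had a log2 fold change of -0.67 (SE 0.36, 95% interval -1.50 to 0.17, limma unadjusted p = 0.102). Without WT replicate 1 it was -0.97 (limma unadjusted p = 0.0276), without WT replicate 3 it was -0.44, and without KO replicate 1 it was -0.31. The table sums the transcripts of a gene, so the long signalling and short forms of the receptor were not distinguished.

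Among the 15 genes that act with the leptin receptor, 1 was lower at an unadjusted p below 0.05, 0 were higher, and the median log2 fold change was -0.04. The gene that passed was Irs2, an insulin receptor substrate, at 52.3 to 68.7 CPM in WT and at 38.2 to 46.5 CPM in KO (log2 fold change -0.46, limma unadjusted p = 0.0127, adjusted p = 0.998), with groups that did not overlap. The receptor-bound kinase Jak2 was at 62.5 to 66.8 CPM in WT and at 49.9 to 61.9 CPM in KO (-0.22, unadjusted p = 0.106 in limma), and Pias3, an inhibitor of STAT3, was at 27.5 to 30.5 CPM in WT and at 31.9 to 36.1 CPM in KO (0.24, unadjusted p = 0.10). Stat3, the main transcription factor downstream of the receptor, had a log2 fold change of -0.02 and Leprot, a regulator of receptor trafficking, one of -0.06. Socs3, the feedback inhibitor that leptin and other cytokines induce, was at 242 CPM in WT replicate 1 and between 41.1 and 90.6 CPM in the other 5 libraries (-0.43, unadjusted p = 0.476). That library was also the one with the highest neutrophil markers.

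Adipsin followed a pattern like that of leptin. Cfd (chr10:79890853-79892655) was at 88.1, 176 and 167 CPM in WT and at 49.9, 178 and 65.2 CPM in KO. KO replicate 2 was the highest library of all and the other 2 KO libraries were the lowest, so the groups overlapped. Its log2 fold change was -0.72 (SE 0.47, 95% interval -1.79 to 0.36, limma unadjusted p = 0.165). With 2242 recovered reads in WT and 1187 in KO, Cfd was the most deeply counted of the 8 genes. Without KO replicate 2 the difference was -1.26 (limma unadjusted p = 0.00516, adjusted p = 0.931), and without KO replicate 1 it was -0.35.

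The partners of adipsin in the alternative pathway showed no call, with 0 of 10 tested genes at an unadjusted p below 0.05 in either direction and a median log2 fold change of -0.06. C3, the central complement protein, was at 187 to 458 CPM in WT and at 186 to 350 CPM in KO (log2 fold change -0.01). Cfb, the factor that adipsin cleaves, was at 32.6 to 58.4 CPM in WT and at 33.4 to 46.2 CPM in KO (-0.28). Cfp (properdin, which stabilizes the convertase) had a log2 fold change of -0.08. The smallest p in the list was that of Masp1, a lectin pathway protease (-0.38, limma unadjusted p = 0.0815), followed by that of Cfb.

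The relatives and candidate receptors of resistin likewise gave no call among 4 tested genes, with a median of -0.35. The list holds Tlr4 and Cap1, which have been proposed as resistin receptors, and the resistin-like genes. Retnla, a product of alternatively activated macrophages, was at 6.05, 15.5 and 7.42 CPM in WT and at 4.55, 6.45 and 10.9 CPM in KO (log2 fold change -0.35, limma unadjusted p = 0.426). Retnlg, which myeloid cells make, was at 5.33, 1.02 and 0.165 CPM in WT and at 0.607, 0.841 and 0.588 CPM in KO (-0.62, unadjusted p = 0.436), so that its WT mean rested on replicate 1. Tlr4 had a log2 fold change of -0.36 (unadjusted p = 0.163).

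Rbp4, which carries retinol in blood and is also made by fat cells, was the rarest member. Rbp4 (chr19:38116620-38125321) was at 4.60, 4.68 and 3.63 CPM in WT and at 2.43, 3.64 and 3.53 CPM in KO. KO replicates 1 and 3 lay below every WT library, and KO replicate 2 was above WT replicate 3 by less than 1 read. The recovered reads were 19, 23 and 22 in WT and 16, 13 and 12 in KO, so that counting error alone is wide at this depth. This gave a log2 fold change of -0.39 (SE 0.29, 95% interval -1.05 to 0.28, limma unadjusted p = 0.218), and it was -0.23 without KO replicate 1.

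Of the 11 tested genes of retinol transport and metabolism, 0 passed an unadjusted p below 0.05 and the median log2 fold change was 0.07. Stra6, the membrane receptor for the RBP4 and retinol complex, was at 5.81, 2.03 and 15.3 CPM in WT and at 2.58, 5.04 and 1.76 CPM in KO (-0.90, limma unadjusted p = 0.206). Its highest value was in WT replicate 3, the library with the most hair follicle RNA. The retinaldehyde dehydrogenase Aldh1a1 had the smallest p of the list (-0.62, limma unadjusted p = 0.0661), before the retinoic acid carrier Crabp2 (-0.32, unadjusted p = 0.123) and Dgat1, an acyltransferase that can also esterify retinol (-0.47, unadjusted p = 0.160).

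Chemerin (Rarres2, chr6:48569696-48572802), a chemoattractant for macrophages and dendritic cells, was at 20.3, 32.5 and 17.8 CPM in WT and at 15.3, 21.0 and 19.5 CPM in KO. Only KO replicate 1 was below all WT libraries. Rarres2 had a log2 fold change of -0.30 (SE 0.25, 95% interval -0.87 to 0.28, limma unadjusted p = 0.268) and was -0.04 without WT replicate 2. The gene overlaps Lrrc61 on the opposite strand (16.2 to 20.7 CPM), and no source used here says whether counting used read strand.

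The chemerin receptor Cmklr1 (chr5:113612355-113650390) was at 32.2, 37.6 and 25.2 CPM in WT and at 17.3, 35.9 and 31.4 CPM in KO. KO replicate 1 was again the lowest library, while the other 2 KO libraries lay inside the WT range. The log2 fold change was -0.21 (SE 0.28, 95% interval -0.86 to 0.44, limma unadjusted p = 0.476), and it was 0.10 without KO replicate 1.

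Of the 6 tested genes of the chemerin axis 1 was lower at an unadjusted p below 0.05 and 0 were higher, with a median log2 fold change of -0.07. That gene was Gpr1, a further chemerin receptor, at 1.45, 1.63 and 1.81 CPM in WT and at 0.455, 0 and 0.881 CPM in KO (log2 fold change -1.29, limma unadjusted p = 0.0330, adjusted p = 0.998). Every KO library was below every WT library, but the KO values came from 3, 0 and 3 reads and the WT values from 6, 8 and 11 reads. Ccrl2, a receptor that binds chemerin without signalling, was at 1.48 to 3.15 CPM in WT and at 0.455 to 2.94 CPM in KO (-0.59, unadjusted p = 0.30). Klk7, a protease of the chemerin-processing set, was at 422 to 481 CPM in WT and at 328 to 632 CPM in KO (0.16, unadjusted p = 0.519).

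Nampt, the rate-limiting enzyme that salvages nicotinamide into NAD and was once named visfatin, was the most even member. Nampt (chr12:32820335-32853369) was at 54.2, 53.7 and 45.3 CPM in WT and at 51.7, 51.6 and 46.1 CPM in KO. The highest library exceeded the lowest by only 1.20-fold, and all KO values lay inside the WT range. The log2 fold change was -0.03 (SE 0.12, 95% interval -0.32 to 0.26, limma unadjusted p = 0.795). Nampt contains Gdap10 on the same strand (0.495 to 3.39 CPM), which can share reads with it.

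Of the 12 other genes of NAD synthesis and use, 1 was lower at an unadjusted p below 0.05, 0 were higher and the median log2 fold change was -0.14. Nnmt, which methylates nicotinamide and so removes it from salvage, was at 8.96, 6.51 and 7.58 CPM in WT and at 2.73, 6.45 and 2.94 CPM in KO (log2 fold change -0.93, limma unadjusted p = 0.0285, adjusted p = 0.998). KO replicate 2 came close to WT replicate 2. Sirt2, a NAD-dependent deacetylase, was at 52.0 to 57.9 CPM in WT and at 45.0 to 50.4 CPM in KO (-0.24, unadjusted p = 0.0709). Nmnat1, the nuclear enzyme that makes NAD from the product of Nampt, was at 3.70 to 4.36 CPM in WT and at 1.79 to 3.64 CPM in KO (-0.59, unadjusted p = 0.105).

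**Figure D2:**
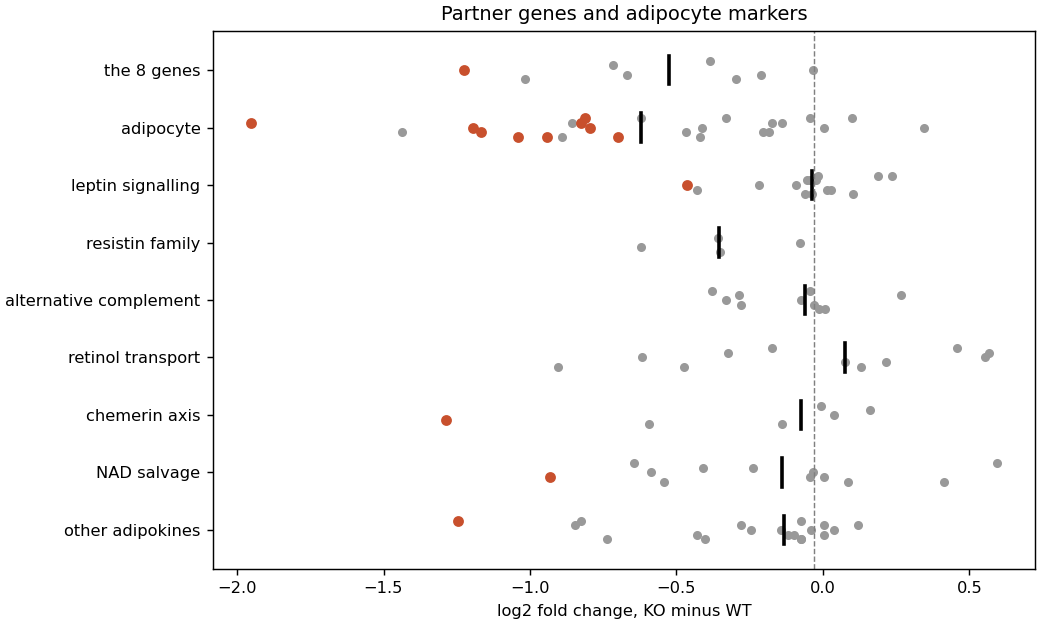
Log2 fold changes (KO minus WT) of the 8 genes, the adipocyte markers and the tested genes of 7 partner lists, with each list's median as a black bar and the median of all tested genes (-0.03) as a dashed line. Red points are at an unadjusted limma p below 0.05, and Adipoq (fitted at -6.17, a value that depends on the pseudocount) lies outside the plotted range; the medians of the 8 genes (-0.53) and of the adipocyte markers (-0.62) lie furthest to the left.

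Further adipokines were described as a list of 20 tested genes that included Adipoq. Of these 2 were lower at an unadjusted p below 0.05 and 0 were higher, with a median log2 fold change of -0.13. One of them was Adipoq itself (adjusted p = 0.00322 in limma), and the other did not pass the adjusted threshold. C1qtnf3, a relative of adiponectin that fat tissue secretes, was at 3.87 to 8.54 CPM in WT and at 1.82 to 4.99 CPM in KO (-0.82, unadjusted p = 0.0842).

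The members were then set beside transcripts of fat cells, since 4 of them varied over the libraries as those did. Of 26 adipocyte markers, 25 were in the table, and none was a member. Of these 25, 9 were lower in KO at an unadjusted p below 0.05, 0 were higher and 4 had KO values wholly below WT. Over all tested genes these shares were 1.82%, 1.06% and 4.89%. The median log2 fold change of the 25 markers was -0.62. The summed level of the markers was 1728 to 2323 CPM in WT and at 1362 to 2047 CPM in KO, so the groups overlapped. A similar shift was seen for 10 skeletal muscle markers, all 10 with negative fold changes (median -0.51), of which 2 were lower at an unadjusted p below 0.05 and 1 had KO values wholly below WT. They summed to 5644 to 7349 CPM in WT and to 3459 to 6976 CPM in KO, so lower values were not particular to the fat markers. None of 5 defining markers was at 0 in any library. Plin1, which coats the fat droplet, was at 40.4, 53.9 and 62.2 CPM in WT and at 14.6, 51.0 and 27.6 CPM in KO. Fabp4, a fatty acid carrier, was at 102 to 166 CPM in WT and at 49.9 to 128 CPM in KO. Cidec, a droplet fusion protein, was at 24.9 to 59.4 CPM in WT and at 14.3 to 46.0 CPM in KO, and Lipe, a lipase, at 50.6 to 90.2 CPM in WT and at 42.9 to 63.9 CPM in KO. Pparg, the regulator of fat cell differentiation, was at 13.6 to 15.7 CPM in WT and at 5.92 to 11.8 CPM in KO (-0.81, limma unadjusted p = 0.0171). As for Lep and Cfd, KO replicate 2 had the highest KO level of each of these 5 markers.

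An adipocyte score, the mean log2(CPM + 0.5) of the 25 markers, was 4.68, 5.14 and 5.26 in WT and 3.97, 4.96 and 4.34 in KO. Over the 6 libraries, Pearson's r with this score was 0.96 for Retn, 0.96 for Cfd, 0.93 for Lepr and 0.90 for Lep (Spearman's rho 0.94, 0.77, 0.94 and 0.77). Without the 2 libraries farthest from the median score, r was 0.86, 0.83, 0.99 and 0.77 for the same 4 genes. After subtraction of the genotype means r was 0.94 for Retn, 0.98 for Cfd, 0.89 for Lepr and 0.87 for Lep, so these genes and the score varied together within genotypes too. For Rbp4, Cmklr1 and Rarres2 r was 0.69, 0.61 and 0.57, and it became -0.43, -0.34 and 0.13 without the 2 farthest libraries. For Nampt r was -0.07. These are descriptions over 6 libraries that share total-count scaling, chosen from 72 relations of the 8 members with 9 cell type lists.

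**Figure D3:**
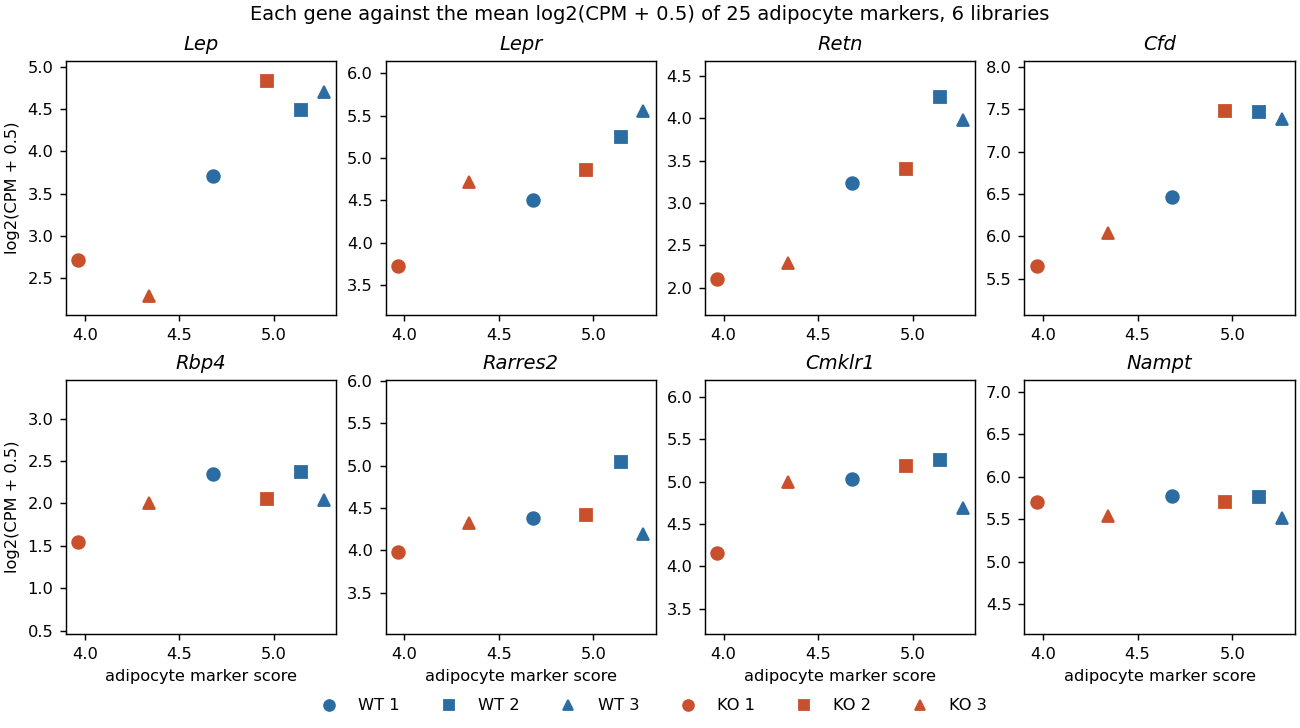
Log2(CPM + 0.5) of each gene against the adipocyte marker score in the 6 libraries (blue, WT; red, KO; marker shape, replicate), with 3 log2 units shown on each vertical axis. Retn, Cfd, Lepr and Lep lie along rising lines (r = 0.96, 0.96, 0.93 and 0.90), while Nampt is flat (r = -0.07).

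The score is the mean of the 25 markers, so counts over single markers describe the same relation and add no separate evidence. Of the 25, 17 had r above 0.8 with Cfd, 14 with Retn, 12 with Lep and 12 with Lepr, whereas 3 did with Rbp4, 1 with Cmklr1 and 0 with Rarres2 or Nampt. Over all tested genes the share with r above 0.8 was 3.28% to 6.80%, according to the member. The best single markers were Car3 for Retn (r = 0.98), Cidec for Cfd (0.98), Aoc3 for Lepr (0.98) and Pnpla2 for Lep (0.98). Other skin cells express Pnpla2 too, and it was among the markers left out in an alternative given below.

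Members also varied with other lists, including those that went with the fat markers. Lepr had r = 0.86 with the endothelial score and 0.81 with the skeletal muscle score (0.06 and 0.78 without the 2 farthest libraries). For Cfd and Retn r with the endothelial score was 0.73 and 0.68, and for Rbp4 it was 0.82. Cmklr1 and Rarres2, receptor and ligand, had r = 0.79 with each other (rho = 1) and each had r = 0.78 with the score of 13 macrophage markers, of which 0 were called. This pair did not stand apart, since r with Rbp4 was 0.86 for Cmklr1 and 0.78 for Rarres2. Cmklr1 also had r = 0.90 with the endothelial and 0.82 with the fibroblast score. Nampt had r = 0.88 with the neutrophil score and 0.77 with the macrophage score (0.85 and 0.54 without the 2 farthest libraries), over a range of only 0.26 log2 units. Leptin and its receptor had r = 0.69, lower than Lep with Cfd (0.95) or with Retn (0.89), among 28 pairs of members. Without the 2 farthest libraries these values were 0.49, 0.96 and 0.45.

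Each gene was also expressed relative to fat cell transcripts, as its log2(CPM + 0.5) less the adipocyte score of the same library. The mean score was 5.03 in WT and 4.42 in KO, a difference of -0.61, so the genotype difference of every gene is 0.61 higher on this scale by construction. On this scale Lepr differed by -0.06 (exact permutation p = 0.9, two-sided, n = 3 against 3), Cfd by -0.11 (exact permutation p = 0.8) and Lep by -0.41 (exact permutation p = 0.6). The spread over the 6 libraries shrank to 33.7% of that of the level for Lepr, 45.4% for Cfd, 53.6% for Retn and 75.5% for Lep. Lep remained scattered within KO, at -1.25, -0.13 and -2.05.

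Resistin was the one member whose genotypes did not overlap on this scale. Relative to the score, Retn was at -1.44, -0.89 and -1.28 in WT and at -1.86, -1.56 and -2.05 in KO, a difference of -0.62 (exact permutation p = 0.1, the smallest that 3 against 3 libraries can give). Every KO library lay below every WT library, which was so for 0.126% of all tested genes on a scale where the score itself was lower in KO. Retn spanned 2.15 log2 units over the 6 libraries, while the score ran only from 3.97 to 5.26. A gene that changes more steeply than the score keeps lower KO values after the subtraction. The separation cannot tell this from a genotype difference. The value of -0.62 for Retn stayed between -0.46 and -0.75 when any 1 library was left out. Rbp4 (0.22), Rarres2 (0.31), Cmklr1 (0.40) and Nampt (0.57) were positive on this shifted scale, with exact permutation p of 0.2 to 0.7 and overlapping groups.

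**Figure D4:**
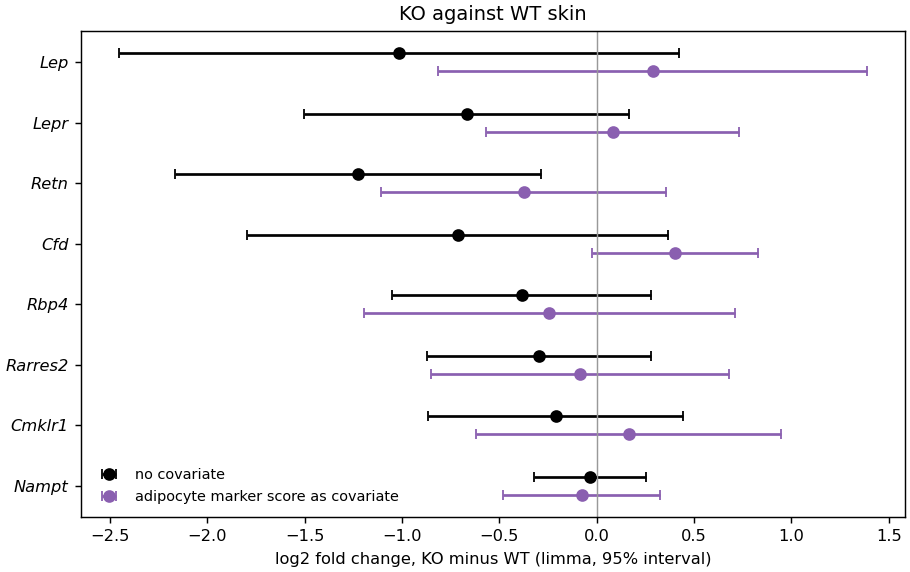
Log2 fold changes (KO minus WT) of the 8 genes with 95% intervals from limma, without a covariate (black) and with the adipocyte marker score as a covariate (purple). Without the covariate only the interval of Retn (-2.16 to -0.28) lies clear of 0, and with it all 8 intervals include 0.

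In limma with the adipocyte score as a covariate, Retn was at -0.37 (95% interval -1.11 to 0.36, unadjusted p = 0.267) and 0 of the 8 members were called. Lep was at 0.29 (-0.81 to 1.39), Lepr at 0.08 (-0.57 to 0.73) and Cfd at 0.40 (-0.02 to 0.83, unadjusted p = 0.0607), each with a positive sign. The score was itself lower in 2 of 3 KO libraries than in any WT library, so the covariate and the genotype were in part the same contrast. The part of fat content in these differences was not tested.

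The genes of most similar pattern were found for each member by Pearson's r of log2(CPM + 0.5) over the 6 libraries. They were Dhdh, Abcd2 and Acvr1 for Lep, Zxdb, Aldh6a1 and Mylip for Lepr, Gnaq, Strip2 and Srpx for Retn, and Tshr, Golm1 and Dock4 for Cfd. They were Ugt1a6b, Gcnt2 and Ptp4a1 for Rbp4, Snap23, Ticam2 and Dpt for Rarres2, Arfip1, D730005E14Rik and Gm12258 for Cmklr1, and Tlk2, Cltc and Tmem167 for Nampt. The highest r was that of Cfd with Tshr, the thyrotropin receptor, at 0.999 (n = 6, r = 0.999 without the 2 farthest libraries). With 6 points and 14306 genes, the best matches of any gene have a high r.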

How the data were processed

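Ear skin RNA of 6 mice was sequenced (TruSeq, paired-end). The authors aligned reads to mm10 with STAR 2.7.3a, quantified them with the Partek expectation-maximization method on Ensembl transcripts, and deposited gene values as CPM, each count divided by the library total per 1000000 reads, plus an offset of 0.0001. The offset was subtracted here. Depth was read from the CPM step of 1 read. Below 20 reads, 91.6% to 92.7% of a library's values were whole to within 0.1 read, so recovered reads are estimates and cover counting error only. No source used here says whether counting used read strand.

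The 14306 of 15667 genes averaging 1 CPM or more were tested on log2(CPM + 0.5), which understates changes of low genes, with limma 3.58.1 in R 4.3.3 (lmFit, eBayes with trend), two-sided, with no covariate, and Benjamini-Hochberg adjustment over all of them. The step was also run on simulated counts, with the same dispersion for every gene and no differences in cell content between libraries. That run therefore does not cover the spread of the real libraries. Levels between genes used GENCODE M21 transcript lengths. Each library is one mouse, and 3 against 3 libraries cannot reach an exact permutation p below 0.1.

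The members and lists were chosen with earlier results of these data known. Genes named were the members, Adipoq, 5 adipocyte markers, fixed partners, up to 3 genes of smallest p per list and the 3 genes of highest r per member. A few genes that this rule names are not reported here. Alternatives were other pseudocounts, filters, scalings, moderation, limma voom on recovered reads, a replicate block, adipocyte or hair follicle scores as covariates, and omission of each library.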

Additional observations from a re-analysis of the deposited data

How the results depend on the processing

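Each of 19 alternative fits left 0 members past the adjusted threshold. Rbp4, the rarest member, gave no value with a filter at a mean of 5 CPM. The cause of the shifts given here was not tested.

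With the adipocyte score as a covariate, the log2 fold changes of Lep (0.29), Lepr (0.082), Cfd (0.40) and Cmklr1 (0.16) changed sign, and 0 members were called. In this fit 2 genes of the 7 partner lists were higher, as were 232 of all 14306 tested genes. The 7 partner lists held 15, 4, 10, 11, 6, 12 and 20 tested genes. With this covariate the list medians moved to 0.0020 (the 8 members), -0.025 (adipocyte), 0.048 (leptin signalling), -0.13 (resistin family), -0.17 (retinol) and 0.11 (NAD). With the hair follicle score, 3 members (Lep, Lepr and Retn), 8 lower genes of the partner lists and 1 higher gene were called. In that fit lower calls were 4.13% of all tested genes, against 1.82% with no covariate, and 310 genes were higher. Nampt was at 0.027, and the leptin and retinol medians were 0.023 and -0.16. Quantile normalization put Nampt at 0.0016 and the leptin median at 0.015, and median-of-ratios rescaling put that median at -0.0068. With this rescaling 1 member, the rarest (Rbp4), had KO wholly below WT, as did 3.91% of all tested genes. A filter at 5 CPM put the retinol median at -0.25. Without 5 adipocyte markers that other skin cells express (Plin5, Cebpa, Lpl, Dgat2 and Pnpla2), Lepr and Cfd relative to the markers were at 0.050 and 0.0034. With merged exons Nampt was at 10.1 CPM per kilobase in WT.

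With the replicate number as a block, 3 members (Lepr, Retn and Cfd) and 9 lower genes of the partner lists were called at an unadjusted p, and 2.89% of all tested genes were called lower. The labels do not say whether equal numbers pair mice. Deviations of WT and KO libraries with the same number had r = 0.38, -0.31 and -0.22. Those with different numbers had r from -0.38 to 0.45. These values also vary with the cell content of the libraries, so they cannot decide whether the mice were paired.

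When 1 library at a time was left out, 0 to 3 members were called lower (3 without KO replicate 2), where 1.03% to 2.77% of all tested genes were (2.67% without KO replicate 2). KO lay wholly below WT for 0 to 4 members and, with fewer libraries to overlap, for 7.72% to 13% of all tested genes (4 members and 12.1% of genes without KO replicate 2). Log2 fold changes ran from -0.41 to 0.10 for Cmklr1 (0.10 without KO replicate 1) and from -0.12 to 0.020 for Nampt (0.020, 0.011 and 0.0045 without KO replicate 3, WT replicate 1 and WT replicate 2). Of the 7 partner lists, 3 to 11 genes were lower and 0 to 1 higher, where 89 to 313 of all tested genes were higher. List medians ran from -0.052 to 0.0040 (leptin), -0.53 to -0.093 (resistin), -0.36 to 0.075 (complement), -0.12 to 0.071 (retinol) and -0.29 to -0.14 (other adipokines). Relative to the adipocyte markers, values ran from -0.92 to 0.042 for Lep, -0.24 to 0.065 for Lepr (0.048 without WT replicate 3), -0.38 to 0.031 for Cfd (0.013 without WT replicate 2) and -0.0027 to 0.44 for Rbp4.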
